A study of Mus musculus with 16 samples.

Results

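Snora31 and Gm24313 are H/ACA-type small nucleolar RNAs (snoRNAs), each made from an intron of a protein-coding gene, measured here in blood cells of mouse bone marrow. They were found among the 1885 small RNA intervals of the count files by exact match to the GENCODE M21 coordinates of their genes on GRCm38, so there were 2 members of 1885 intervals, and both passed the low-count filter that kept 749. The pair was picked because earlier results of these libraries showed higher levels in progenitors than in mature cells. That comparison is therefore given below as values, with no test on the members.

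Total RNA came from bone marrow cells of wild-type mice, stained for surface antigens and sorted by flow cytometry, and small RNA libraries were size-selected on a gel around snoRNA length. The lineage cocktail and antibodies to CD127, CD34, CD16/32, Flk2, c-Kit, CD49b and Sca-1 separated 4 progenitors, in the usual abbreviations CLP (common lymphoid), CMP (common myeloid), GMP (granulocyte and monocyte) and MEP (megakaryocyte and erythroid), from mature B, T, Myeloid (Myloid in the labels) and Erythroid cells. Every population was sequenced as 2 libraries. No treatment, age, sex or strain is named, nor is it stated if a pair of libraries came from separate mice, so a p value here reflects library-to-library spread that could be purely technical. These are bulk samples, in which a change in cell make-up and a change in RNA per cell cannot be told apart.

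H/ACA snoRNAs fold into hairpins joined by a short hinge that holds the H box, and end in the ACA box. With dyskerin and its partner proteins they guide the conversion of chosen uridines to pseudouridine, mostly in ribosomal RNA. Most are cut out of introns after splicing, so that their output depends on transcription of the host gene, on splicing and on the stability of the particle. Human SNORA31 has known pseudouridylation targets in ribosomal RNA. Its host Tpt1 encodes the translationally controlled tumour protein, a very abundant growth-related protein. Gm24313 lies in Tbrg4, which encodes a FASTK-family protein that regulates mitochondrial RNA. Snora5c, of the SNORA5 family of guides, lies in the same host.

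The sequences of both members and of Snora5c, the other snoRNA of the Tbrg4 host, are shown because the results compare these RNAs with each other and because their similarity bears on how reads can be assigned. They are read 5′ to 3′ from the GENCODE M21 transcripts. The capitals mark the likely H box, a central match to the letters ANANNA, and the ACA box at the 3′ end. The H box was placed by letters and position, not by the fold.
Snora31: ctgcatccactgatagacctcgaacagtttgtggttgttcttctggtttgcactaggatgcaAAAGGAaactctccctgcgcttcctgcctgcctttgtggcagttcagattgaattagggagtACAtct
Gm24313: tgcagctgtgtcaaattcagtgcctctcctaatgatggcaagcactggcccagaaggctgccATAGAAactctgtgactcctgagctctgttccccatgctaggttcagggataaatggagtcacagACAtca
Snora5c: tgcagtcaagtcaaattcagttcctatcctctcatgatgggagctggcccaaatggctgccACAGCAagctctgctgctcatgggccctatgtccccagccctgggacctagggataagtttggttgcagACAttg

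All 3 RNAs hold an ANANNA match in their central part, starting at base 63, 63 and 62, and an ACA that ends 3 bases before the 3′ end. The same pair of boxes, searched on the strand of the RNA, was present in 32 of 41 listed intervals named Snora (78.0%) and in 0 of 83 named Snord. The lowest-energy fold had 2 hairpin loops for Snora31 and 2 for Gm24313. It had 4 for Snora5c. The marked ANANNA was unpaired in the fold of Gm24313, but partly paired in those of Snora31 and Snora5c, so these folds do not place it in a hinge.

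Snora31 (ENSMUSG00000065147) spans chr14:75847905-75848034 on the plus strand, 130 bases in the last of 5 introns of the transcript Tpt1-201, 64 bases before the next exon. Gm24313 (ENSMUSG00000064495) spans chr11:6619808-6619940 on the minus strand, 133 bases in intron 5 of 11 of Tbrg4-201, 31 bases after the preceding exon. Snora5c (ENSMUSG00000065686), at chr11:6620319-6620454, is 136 bases long and sits in the neighbouring intron 4. Snora31 and Gm24313 overlap no exon of an annotated transcript of their hosts. Snora5c does: an exon of the retained-intron transcript Tbrg4-205 covers 127 of its 136 bases. RefSeq, on GRCm38.p6, gives Gm24313 the same ends, but starts Snora31 18 bases further in and gives it 112 bases, and gives Snora5c 101 bases.

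Gm24313 and Snora5c share the run gtcaaattcagt from base 10 of each, and aligned at 75.0% identity over 92 bases. Snora31 aligned with neither. The 3′ hairpin of Gm24313, bases 72 to 133, has annotated near-copies at 98.4% identity over 62 bases in Gm22447, Gm23568 and Gm24829, and at 95.2% in Gm23561 and Gm24568. The first 3 were listed with 28 counts in all over the 16 libraries, against 3108 for Gm24313. Snora5c has a nearly full-length copy, Gm23346 within Eif2ak3, at 98.5% identity over 136 bases, so that reads of this pair may have been split between intervals. The closest annotated relative of Snora31 was Gm24165, at 82.9% identity over 129 bases.

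The shallowest library, CMP library 1, held 8197458 counts and the deepest, CLP library 2, held 41799906. Between 89.0% and 93.2% of the values listed in a library were even, and intervals were therefore computed on read pairs, taken as count divided by 2. Levels are given as CPM, counts divided by library size and brought to a common scale, with library sizes adjusted by the TMM method (trimmed mean of M-values). The members are scarce: single libraries held 28 to 628 counts of Gm24313 and 46 to 1090 of Snora31. GMP, MEP and Erythroid had unlike libraries, with an SD of the log2 ratio between their 2 libraries of 0.513, 0.578 and 0.566 over abundant features, against 0.104 to 0.199 elsewhere. The erythroid miRNA Mir451a was highest in MEP (152 CPM) and Erythroid (147), Mir223 in Myeloid (921) and Mir150 in T (272) and B (81.8), each in a population of its own lineage. Mir144 was likewise highest in MEP (4.59) and Erythroid (2.58), and Mir155 in T (12.35) and B (5.84). Other values were less clear. Mir451a also stood at 127 in CLP, above 12.1 in B, and at 90.9 in GMP, and Mir223 at 443 in Erythroid. The lymphoid Mir181a-1 and Mir181a-2 were highest in T (106 and 96.8), but lower in B (55.1 and 49.5) than in Myeloid (63.8 and 59.0). The 5 miRNAs of stem and progenitor cells did not mark the progenitors as a group. Their summed levels were 11.8 to 38.1 CPM in the progenitors and 8.56 to 17.8 in mature cells. Mir99a (16.4), Mir126a (18.2) and Mir125b-1 (1.89) were highest in CMP, but Mir126a was next highest in T (12.5). Mir125a was highest in T (1.42). Mir125b-2 was scarce everywhere, with 0.29 in MEP as its highest level and 0 in B and T. Mir142, a marker of all blood cells, ran from 16.9 in CMP to 161 in Myeloid, and was lower in every progenitor than in every mature population.

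Gm24313 was high in all 4 progenitors and low in all 4 mature populations. In progenitors it had 15.8 and 13.6 TMM-scaled CPM in the CLP libraries, 11.9 and 12.4 in CMP, 16.2 and 16.8 in GMP and 13.6 and 13.04 in MEP. In mature cells it had 4.86 and 3.44 in B, 2.71 and 4.17 in T, 3.46 and 4.13 in Myeloid and 6.39 and 6.91 in Erythroid. The groups did not overlap: the lowest progenitor library, CMP library 1 at 11.9, lay above the highest mature library, Erythroid library 2 at 6.91. Over all tested features 3.20% (24 of 749) had all 8 progenitor libraries above all 8 mature ones, but this snoRNA was picked on that contrast and nothing is read from it. The means were 14.2 ± 1.86 CPM in progenitors and 4.51 ± 1.46 in mature cells (SD, n = 4 populations each), a 3.14-fold difference of levels, and the fitted log2 difference was 1.66 ± 0.109 (SE).

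Snora31 had a different profile, set by CLP at the top and by CMP and T at the bottom. The CLP libraries had 22.6 and 23.7 TMM-scaled CPM, the MEP libraries 11.1 and 12.5, and the CMP libraries 4.997 and 8.26. The GMP libraries, at 18.5 and 7.87, differed 2.35-fold, and their 95% Poisson intervals on read pairs, 15.5 to 21.9 and 6.03 to 10.1, did not meet (these intervals cover counting error only). In mature cells Snora31 had 9.13 and 9.07 in B, 5.42 and 3.30 in T, 7.04 and 8.01 in Myeloid and 9.89 and 8.01 in Erythroid. So the stages overlapped: 5 of 8 progenitor libraries lay above all mature ones, while both CMP libraries and GMP library 2 did not. The name progenitor-high thus holds for CLP and MEP in both libraries, but not for CMP, whose mean of 6.63 ± 2.31 (SD, n = 2) was below those of B (9.10 ± 0.0423), Erythroid (8.95 ± 1.33) and Myeloid (7.52 ± 0.685). The stage means were 13.7 ± 6.90 and 7.48 ± 2.20 CPM (SD, n = 4 populations each), and the fitted log2 difference was 0.79 ± 0.183 (SE).

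**Figure D1:**
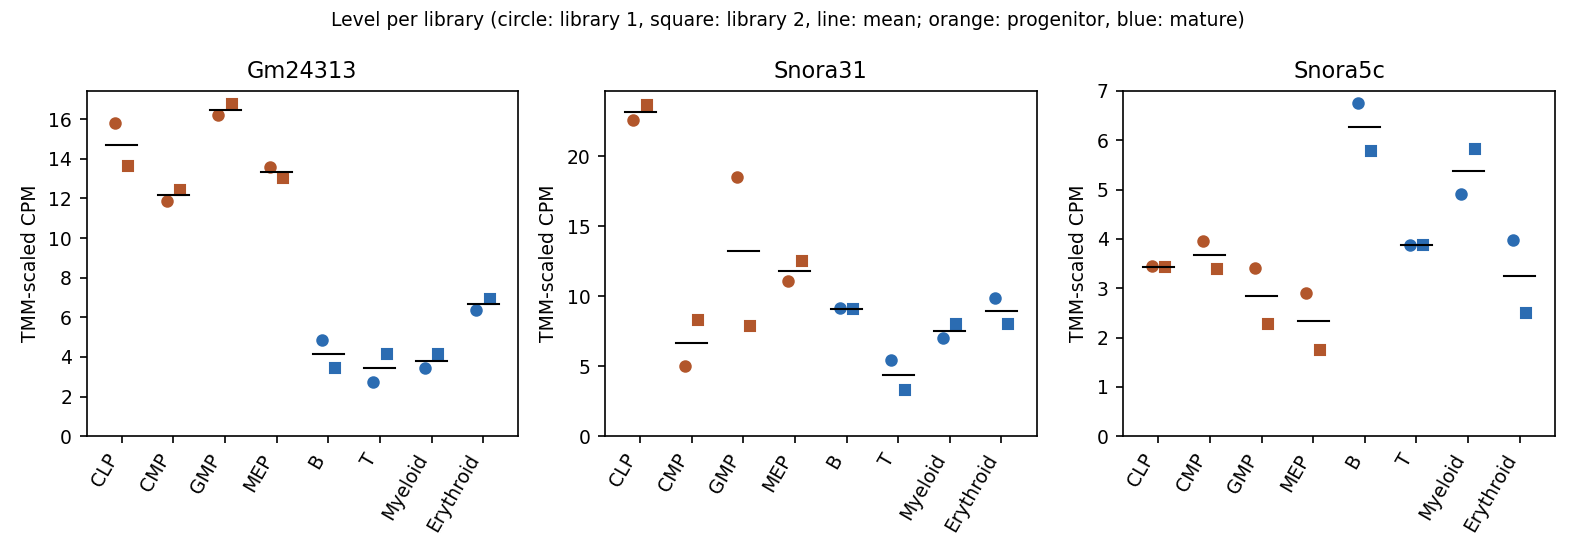
TMM-scaled CPM (vertical axis) of Gm24313, Snora31 and Snora5c in each library of the 8 populations (horizontal axis), with library 1 as a circle, library 2 as a square and the mean as a line. Gm24313 separates the progenitors (11.9 to 16.8) from the mature cells (2.71 to 6.91), Snora31 is highest in CLP, and Snora5c is highest in B and Myeloid.

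Ranked by mean, Gm24313 ran from GMP (16.5 ± 0.382) through CLP (14.7 ± 1.53), MEP (13.3 ± 0.389), CMP (12.2 ± 0.402), Erythroid (6.65 ± 0.368), B (4.15 ± 1.01) and Myeloid (3.80 ± 0.470) to T (3.44 ± 1.03; SD, n = 2 each). The libraries of neighbours overlapped from B to Myeloid and from Myeloid to T, and nowhere else in this order. Such gaps, between 2 libraries each, were not counted over all features. They do not set an order of the progenitors, since no pair of these passed a test for Gm24313 (below). The gap between CMP and Erythroid, the step from the progenitors to the mature cells, was the widest. This snoRNA was picked on that step, so nothing is read from its width. For Snora31 the order was CLP (23.1 ± 0.756), GMP (13.2 ± 7.54), MEP (11.8 ± 1.01), B, Erythroid, Myeloid, CMP and T (4.36 ± 1.498). Neighbours overlapped in 4 of the 7 steps, those from GMP to MEP, B to Erythroid, Myeloid to CMP and CMP to T. Progenitors thus spread over a 3.49-fold range of population means for Snora31 and a 1.36-fold range for Gm24313.

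Differences inside a stage are not the contrast by which the members were picked, and these were tested. They use the same libraries as that contrast, so they may not be fully independent of the choice. Snora31 differed among the 4 progenitors (adjusted p = 0.0164, edgeR quasi-likelihood F test with Benjamini-Hochberg adjustment over 749 features), a result shared by 29.8% of all features. Of the 6 progenitor pairs, CLP against CMP passed, with Snora31 3.40-fold higher in CLP (log2 difference 1.77 ± 0.368, adjusted p = 0.00403), where 23.4% of all features passed. CLP also stood above MEP by 0.96 ± 0.356 and above GMP by 0.81 ± 0.356, which did not pass (adjusted p = 0.139 and 0.279 by edgeR, with 8.14% and 6.94% of features passing). CMP lay below GMP by 0.96 ± 0.366 and below MEP by 0.80 ± 0.364 (adjusted p = 0.0782 and 0.130, with 25.5% and 26.3% passing), and GMP and MEP differed by 0.16 ± 0.357 (adjusted p = 0.898, 7.61% passing). The test over the 4 progenitors was lost without CLP library 1 (adjusted p = 0.0554), without CLP library 2 (0.0794), without CMP library 1 (0.103) and when only the progenitors were fitted (0.0734). The CLP and CMP difference was lost without CMP library 1 (1.54, adjusted p = 0.0683), and CMP library 1 held 48 counts of Snora31.

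Gm24313 did not differ past the threshold among the progenitors (adjusted p = 0.387 by edgeR). Its largest difference there, CMP below GMP, was -0.43 ± 0.210 on the log2 scale (adjusted p = 0.161), and the other 5 pairs lay between -0.16 and 0.31. With 2 libraries per population, differences of this size can be missed, and no detection limit was computed, so equal levels are not shown.

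Among the mature cells Gm24313 differed (adjusted p = 0.0144 by edgeR, with 50.9% of all features passing), and Erythroid cells stood above the others. Erythroid was higher than T by 0.92 ± 0.224 on the log2 scale or 1.89-fold (adjusted p = 0.00685 by edgeR, 37.2% of features passing). It was higher than Myeloid by 0.79 ± 0.215 or 1.73-fold (adjusted p = 0.0247, 19.0% passing) and higher than B by 0.66 ± 0.219 or 1.58-fold (adjusted p = 0.0465, 25.8% passing). B, T and Myeloid differed from each other by at most 0.26 ± 0.228, which did not pass (of all features, 28.2% passed for B against T, 29.2% for B against Myeloid and 30.4% for T against Myeloid). The difference from T passed under all 26 alternatives that tested it, while the one from B was lost under 21 of 26 and the one from Myeloid under 7 of 26. The test over the 4 mature populations was lost without CLP library 1 (adjusted p = 0.0520), without Erythroid library 2 (0.0661), without a low-count filter (0.0620) and when only the mature cells were fitted (0.0778). Mir451a was also far higher in Erythroid cells than in B, T or Myeloid cells (147 against 12.1, 32.8 and 47.0 CPM), and the part of erythroid RNA or of immature cells in the Gm24313 level was not tested.

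Snora31 did not pass among the mature cells (adjusted p = 0.115 by edgeR). Its mature population means still spanned a 2.085-fold range, against 1.934-fold for Gm24313, so a smaller difference than that of Gm24313 is not shown. T was lowest, and lay 1.06 ± 0.38 below B and 1.03 ± 0.378 below Erythroid on the log2 scale (adjusted p = 0.0595 and 0.0523). Without either GMP library, which are far apart for this RNA, the test passed (adjusted p = 0.0231 and 0.0217 without libraries 1 and 2), as it did with library totals (0.0346). It also passed without a low-count filter (adjusted p = 0.0136 by edgeR), with the GMP libraries kept. All populations, GMP included, share 1 estimate of the spread in this fit, and the part of the GMP spread in this result was not tested.

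**Figure D2:**
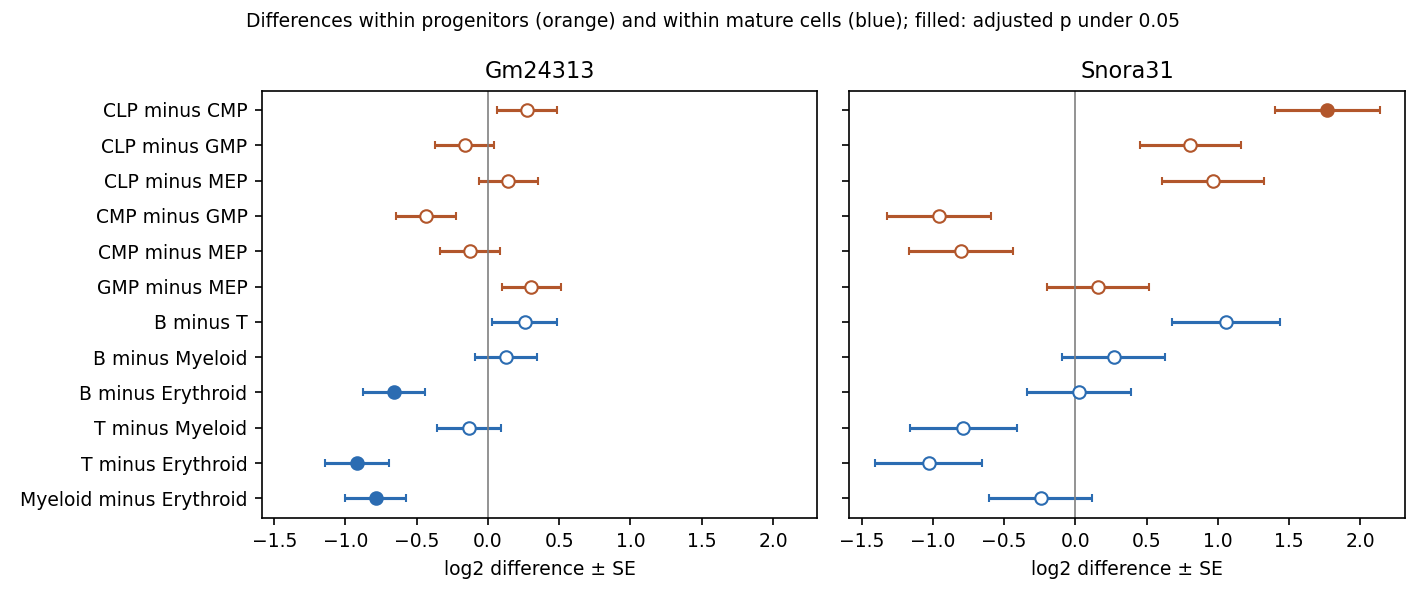
Log2 differences (horizontal axis, with SE as bars) of Gm24313 and Snora31 for the 6 pairs of progenitors and the 6 pairs of mature populations (vertical axis), filled where the adjusted p was under 0.05. Snora31 has 1 filled point, CLP minus CMP at 1.77, and Gm24313 has 3, each with Erythroid on the higher side.

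For Gm24313 the step from progenitor to mature cell had unlike values in the 3 branches, but the test of this was not stable. As values, with no test, the log2 difference was 1.92 ± 0.178 between CLP and the mean of B and T, 2.08 ± 0.218 between GMP and Myeloid, and 0.99 ± 0.213 between MEP and Erythroid. Over all features 43.3%, 31.8% and 9.88% passed in these contrasts, from which nothing is read for the members. These values belong to the contrast on which the members were picked. A test between them may therefore not be independent of that choice. The difference between these branches passed (adjusted p = 0.0301 by edgeR F test, with 25.8% of features passing). It was lost without CLP library 1 (adjusted p = 0.0930) and without any 1 of the MEP and Erythroid libraries (0.0522 to 0.0715). For Snora31 the branch values were 1.86 ± 0.299, 0.80 ± 0.359 and 0.40 ± 0.359, and the test between branches did not pass (adjusted p = 0.0796). It passed without GMP library 1 (0.00657) and without GMP library 2 (0.0209).

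Within the Tbrg4 host the other snoRNA, Snora5c, went the other way. It had 3.44 and 3.43 TMM-scaled CPM in CLP, 3.96 and 3.39 in CMP, 3.41 and 2.28 in GMP and 2.90 and 1.76 in MEP, and 6.76 and 5.79 in B, 3.87 and 3.88 in T, 4.92 and 5.82 in Myeloid and 3.98 and 2.50 in Erythroid. B and Myeloid lay above every progenitor library, while T and Erythroid overlapped with them. Snora5c was lower in progenitors by -0.57 ± 0.149 on the log2 scale (adjusted p = 0.00824 by edgeR), where 23.1% of features were lower. Its near-copy Gm23346 was lower as well, by -0.66 ± 0.192 (adjusted p = 0.0144), and since reads may be split between these copies the pair is not counted as 2 results. The fall of Snora5c did not pass with library totals (-0.34, adjusted p = 0.0732) or with the libraries of each population summed (-0.68, adjusted p = 0.190).

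The ratio of Gm24313 to Snora5c counts needs no scaling, and both lie in introns of the same host gene. The Snora5c count in it may lack reads assigned to its near-copy Gm23346 (646 counts in all, against 1256 for Snora5c). It was 4.59 and 3.98 in the CLP libraries, 3.00 and 3.67 in CMP, 4.76 and 7.33 in GMP and 4.69 and 7.43 in MEP. It was 0.719 and 0.595 in B, 0.700 and 1.07 in T, 0.705 and 0.709 in Myeloid and 1.61 and 2.76 in Erythroid. Gm24313 therefore had 3 or more counts for each count of Snora5c in every progenitor library, and about as many or fewer in B, T and Myeloid, with Erythroid between. The geometric means over populations were 4.71 and 0.959, a 4.92-fold difference. It is given with no test, since the Gm24313 part of it was used to pick the members.

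The ratio of Gm24313 to Snora31, whose hosts differ, is likewise given with no test, since both members were picked on the contrast of the stages. It was lowest among progenitors in CLP (0.699 and 0.576) and highest in CMP (2.38 and 1.505), with 0.875 and 2.13 in GMP and 1.22 and 1.04 in MEP. In mature cells it was 0.532 and 0.379 in B, 0.5 and 1.26 in T, 0.492 and 0.516 in Myeloid and 0.646 and 0.863 in Erythroid. The progenitor and mature populations overlapped, and the geometric means over populations were 1.17 and 0.605.

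**Figure D3:**
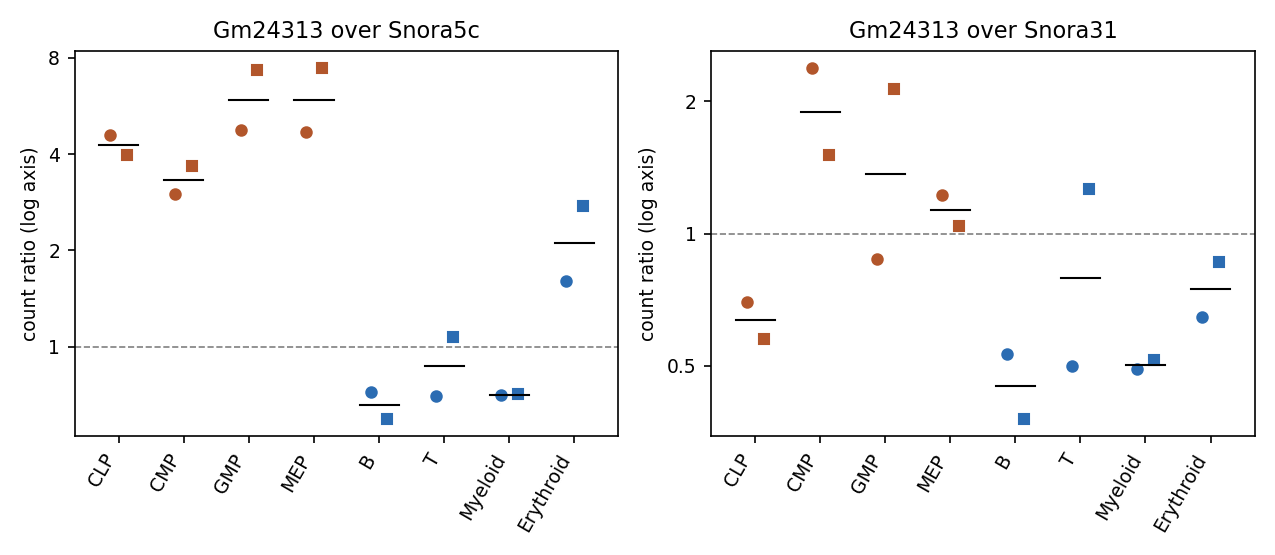
Ratio of Gm24313 counts to Snora5c counts (left) and to Snora31 counts (right) in each library (log axis) of the 8 populations, with the geometric mean as a line and equal counts as a dashed line. The first ratio is 3.00 to 7.43 in progenitors and 0.595 to 2.76 in mature cells, and the second overlaps between the stages.

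With TMM scaling, other named H/ACA snoRNAs did not share 1 direction, though 0 were lower with library totals (below). Of the 37 tested intervals named Snora other than Snora31, 11 were higher in progenitors (29.7%), 6 lower (16.2%) and 20 did not pass by edgeR. Over all 749 features 26.7% were higher and 23.1% lower (200 and 173, and with library totals 309 and 107). Their median log2 difference was 0.20, beside 0.06 over all features. By size the largest rises were in Snora43 (2.11 ± 0.071, adjusted p = 2.13e-09), Snora47 (1.51 ± 0.290, adjusted p = 0.00116) and Snora2b (1.07 ± 0.280, adjusted p = 0.00963). Snora43 had 287 CPM in progenitors and 57.0 in mature cells, and Snora47, within Zbed3, had 2.18 and 0.681. Snora2b, within Kansl2, had 0.553 and 0.287 and was at 0 in T.

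The falls were led by Snora5c, then Snora81 within Eif4a2 (-0.54 ± 0.170, adjusted p = 0.0216 by edgeR) and Snora30 (-0.43 ± 0.109, adjusted p = 0.00645). Snora81 had 5.78 CPM in progenitors and 8.32 in mature cells, and Snora30 had 10.3 and 14.0. The counts depend on scaling and on the unit: with library totals 21 of these snoRNAs were higher and 0 lower, and with the libraries of each population summed 1 was higher and 0 lower. Among all 303 tested snoRNA intervals Gm24313 held rank 3 and Snora31 rank 19 by the signed log2 difference, from the largest rise in progenitors down, which describes how they were picked.

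**Figure D4:**
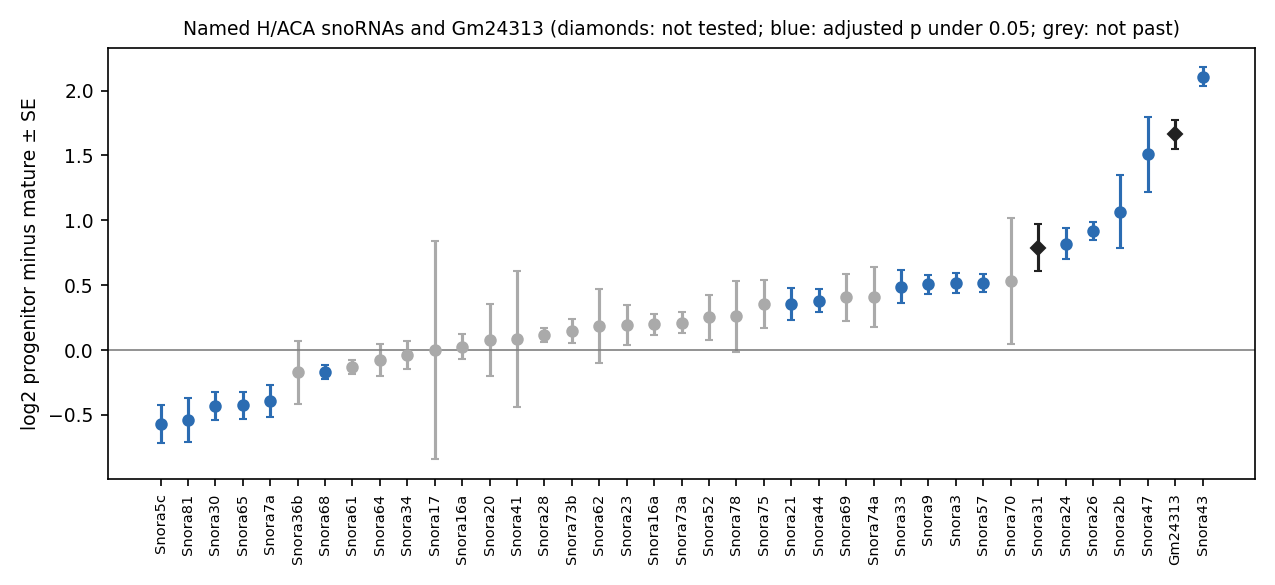
Log2 difference between progenitors and mature cells (vertical axis, with SE as bars) for the tested H/ACA snoRNAs named Snora and for Gm24313 (horizontal axis), ordered by size. The 2 members are diamonds with no test, at 0.79 and 1.66, between Snora5c at -0.57 and Snora43 at 2.11.

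The features whose levels were most like those of each member over the 16 libraries were ranked by Pearson correlation of log2 CPM among the 319 tested features that averaged 10 CPM or more. All share the libraries, their depth and their scaling, so r is a description. Nearest to Gm24313 was Gm24494 (r = 0.97), a snoRNA of 81 bases within Rabggtb, with 11030 to 12440 CPM in progenitor and 7169 to 9793 in mature libraries. Next came mt-Tm, the mitochondrial methionine tRNA (0.91), n-TStga1 (0.89), Gm22571 within Rpl4 (0.88) and mt-Rnr2, the large mitochondrial ribosomal RNA (0.88). All 5 also had every progenitor library above every mature one, as 3.20% of all tested features did (24 of 749). They were ranked by likeness to Gm24313, which has that separation, so nothing is read from this. mt-Tm had 25.7 to 52.9 CPM in progenitors and 8.33 to 23.0 in mature cells.

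Nearest to Snora31 was another H/ACA snoRNA, Snora3 within Rpl27a (r = 0.89), with 25.8 to 59.4 CPM in progenitor and 20.7 to 36.0 in mature libraries and a CLP mean of 47.7. It was followed by Gm23201 within Zfas1 (0.84), Snord43 within Rpl3 (0.82), Rnu73b within Rps3a1 (0.82) and Snord14c within Hspa8 (0.80). In none of these 5 did the progenitor libraries lie clear of the mature ones, and in Snora31 itself they did not either. No feature was among the 5 nearest of both members, and between Gm24313 and Snora31 themselves r was 0.59.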

How the data were processed

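The authors deposited 1 file of raw read counts for each library, 1 value per annotated interval and not normalized. The submitters' processing notes name Trimmomatic 0.38, Bowtie2 2.3.4.1 and GRCm38; parameters, counting program, annotation and strand use are not given in the sources used here. Files list intervals with at least 1 read, and a missing interval was taken as 0. Of 1885 intervals, 1882 matched GENCODE M21 genes by exact coordinates. Libraries of each population differed by more than sampling noise.

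Tests used edgeR 4.0.16 in R 4.3.3: filterByExpr by population (minimum count 10, 749 features), TMM scaling, a quasi-likelihood fit over all 16 libraries in which every population has its own mean, and Benjamini-Hochberg adjustment at 0.05. SE is the log2 difference over the square root of F. "Rose", "fell", "higher" and "lower" with an adjusted p refer to this test. The fit was also run on simulated counts. These had 1 spread for all libraries, unlike GMP, MEP and Erythroid here, so nothing is read from that run. DESeq2 1.42.0 was an alternative. A permutation test planned for the ratio of Gm24313 to Snora31 is not reported, since both were picked on the contrast it would test. Similarity was searched with blastn 2.17.0 (E value up to 1e-05) in annotated transcripts only, and folds with RNAfold 2.7.2. The named features were both members, the snoRNAs of their hosts, the 5 features most like each by correlation (0.5 CPM added), and the 3 largest rises and falls among intervals named Snora. The members and lists were chosen with earlier results of these data known.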

Additional observations from a re-analysis of the deposited data

Results flagged for a closer look

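The difference of Gm24313 between progenitor and mature cells passed a test for being unlike in the 3 branches (adjusted p = 0.0301 by edgeR F test of the difference itself). Of all features 25.8% passed this test, which may not be independent of how the members were picked. Gm24313 did not pass it without a low-count filter (adjusted p = 0.131) or without certain single libraries. Its log2 difference was 1.92 in the lymphoid branch, 2.08 in the granulocyte-monocyte branch and 0.99 in the erythroid branch. Erythroid cells kept 6.65 ± 0.368 CPM (SD, n = 2). Gm24313 was higher in progenitors in all 3 branches, but it was picked on that contrast and nothing is read from this. The level in MEP (13.3 ± 0.389 CPM) was close to that in CLP (14.7 ± 1.53), while Erythroid cells stood above the other mature cells.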

How the results depend on the processing

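The log2 differences of Gm24313, Snora31 and Snora5c between the stages, and the 4 differences within a stage that passed, kept their sign under each alternative that gave them a value; signs of other Snora features were not followed. The balance over all features did turn, from 200 higher and 173 lower to 180 and 184 with edgeR's RLE (relative log expression) scaling and 190 and 195 with DESeq2. With library totals in place of TMM, which moved the median of all features by 0.23 on the log2 scale, 309 features were higher and 107 lower in progenitors, other Snora features were 21 higher and 0 lower, Gm24313 differed by 1.89 and Snora31 passed among mature cells (adjusted p = 0.0346, edgeR) and between branches (0.0135). With snoRNA intervals alone, 88 features were higher and 100 lower, 196 differed among mature cells, and Snora31 passed between branches (0.00731). With a mean of at least 10 CPM, 104 were higher and 114 lower (other Snora 6 and 3), and Gm24313 was too low to test. With the libraries of each population summed, 10 were higher and 11 lower (other Snora 1 and 0). Without a low-count filter 3 other Snora were lower, Snora31 passed among mature cells (0.0136) and between branches (0.0038), and Gm24313 passed in neither (0.062 and 0.131). With only the 4 populations compared, adjusted p was 0.0734 for Snora31 among progenitors, and 0.0402 for Snora31 and 0.0778 for Gm24313 among mature cells. Leaving out the libraries numbered 1, or those numbered 2, of GMP, MEP and Erythroid gave 385 or 371 features among progenitors and 334 or 363 between branches, Snora31 at 0.00459 or 0.00446 among mature cells and at 0.000255 or 0.00218 between branches, and Gm24313 between branches at 0.0701 without those numbered 2.

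Leaving out 1 library at a time gave 121 (without CMP library 1) to 232 features among progenitors, 304 to 403 among mature cells and 114 to 210 between branches (118 and 114 without CLP libraries 1 and 2). Adjusted p for Snora31 ran from 0.0012 to 0.103 among progenitors, 0.0217 to 0.476 among mature cells and 0.00657 to 0.21 between branches. For Gm24313 it ran from 0.00614 to 0.0661 among mature cells and 0.0181 to 0.093 between branches. Log2 differences between the stages ran from 1.55 to 1.70 for Gm24313 and 0.60 to 0.93 for Snora31. Features numbered 142 to 218 higher and 148 to 189 lower, other Snora 9 to 13 and 3 to 7.

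No common pairing of the populations by library number was seen. The correlation of differences between libraries 1 and 2 ran from -0.64 to 0.49 over 28 pairs of populations, and was over 0.1 in 8. Of 16 libraries, 8 correlated best with their own number. A pairing shared by only some populations was not tested. With the replicate number as a block, Snora31 passed among progenitors (adjusted p = 0.0247), and Gm24313 among mature cells (0.0215) and between branches (0.0427), while Gm24313 in B against Erythroid did not (0.0608). The causes of these changes were not tested. Low counts, down to 28 of Gm24313 and 46 of Snora31 in a T library, limit the precision.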
